A study of Mus musculus with 6 samples.

Results

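The kinesin and cytoplasmic dynein genes were followed in RNA-seq of primary mouse motoneuron cultures, as 59 members among 22736 protein-coding genes and 39174 genes in all. Members were taken by name and not by their values: kinesin heavy chains (Kif and Kifc genes), kinesin light chains (Klc genes), and dynein chains whose symbols begin with Dync, Dynll or Dynlt. The roadblock light chain genes Dynlrb1 and Dynlrb2 and the kinesin-2 partner Kifap3 fall outside that naming and appear below only as companions. There were 3 libraries labelled Nmd-/- and 3 labelled Nmd+/+, numbered 1 to 3 in each genotype and all given as strain CD-1. The Nmd (neuromuscular degeneration) mutation lies in Ighmbp2, which encodes an RNA and DNA helicase and is the gene of human spinal muscular atrophy with respiratory distress. No treatment, age or number of pooled animals is given, and the labels do not say whether the libraries of 1 genotype stem from different cultures or mice. Xist, the RNA that coats the inactive X chromosome of female cells, measured 225, 259 and 0.143 FPKM in Nmd-/- replicates 1, 2 and 3, against 226, 0.155 and 273 FPKM in Nmd+/+ replicates 1, 2 and 3. Nmd-/- replicate 3 and Nmd+/+ replicate 2 thus held next to no Xist and the other 4 libraries held much, so the 3 libraries of a genotype were not all made from the same cells. Same-numbered libraries differed in Xist for the numbers 2 and 3. Whether the 2 libraries of a genotype that are alike in Xist are separate cultures is not known, and the p-values measure the spread between these libraries.

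Kinesins and dynein are motors that walk along microtubules. Most kinesins move toward the plus end, which in an axon points to the growth cone, and cytoplasmic dynein moves toward the minus end and so back to the cell body. Motoneurons rely on both because their axons are long, and mRNAs such as that of β-actin, whose local translation the study's title names, travel along microtubules as granules. Another group of kinesins works mainly in dividing cells, where they build the spindle, move chromosomes and split the daughter cells. A further group, together with cytoplasmic dynein 2, serves cilia.

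The values are FPKM (fragments per kilobase of transcript, scaled to the library's depth), which are corrected for length, so levels of different genes can be set side by side. The files give no counts, and between 14474 and 14645 genes reached 1 FPKM per library. The summed FPKM of 14 neuron markers lay between 1118 and 2143 in Nmd-/- and between 1121 and 2293 in Nmd+/+, with both low ends in replicate 2. The 10 fibroblast markers reached a sum of 192 FPKM (Nmd-/- replicate 2) and 159 FPKM (Nmd+/+ replicate 2), and of at most 9.36 FPKM in the other 4 libraries. The 18 dividing cell markers, all above 1 FPKM on average, summed to between 1068 and 1232 FPKM in Nmd-/- and between 812 and 1242 FPKM in Nmd+/+, lowest in Nmd+/+ replicate 3. The 11 radial glia and astrocyte markers summed to between 4054.5 and 5030 FPKM in Nmd-/- and between 3192 and 4382 FPKM in Nmd+/+. Of these, Vim alone had a mean of 3471 FPKM over the 6 libraries. The 8 oligodendrocyte lineage markers summed to between 31.5 and 52.9 FPKM in Nmd-/- and between 52.2 and 68.6 FPKM in Nmd+/+. Of 7 motoneuron markers in the files 1, Isl1, reached a mean of 1 FPKM, and Chat, Isl2 and Mnx1 stayed below 0.1 FPKM in every library. The values below are thus those of mixed cultures in which defining motoneuron markers were near 0. In such samples, fewer cells of a type and less RNA per cell cannot be told apart. Ighmbp2 itself, the check of the labels, measured 0.876, 0.788 and 0.598 FPKM in Nmd-/- replicates 1, 2 and 3, against 1.44, 1.303 and 1.09 FPKM in Nmd+/+ replicates 1, 2 and 3, with no overlap between genotypes and a log2 difference of -0.38 (SE 0.14, limma adjusted p = 0.9997).

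No motor gene passed the test between genotypes. Of the 59 members, 52 had a mean of at least 1 FPKM and entered the fit (limma on log2(FPKM + 1), all 14611 genes together), and 0 of the 52 had an adjusted p under 0.05, against 0% of all genes tested. At an unadjusted p under 0.05 the counts were 0 of 52 members and 0.445% of all genes. With replicate number as a block 0 of 52 had an adjusted p under 0.05, and 3 members (Kif20a, Kif18b and Kifc5b, all higher in Nmd-/-) had an unadjusted p under 0.05, where 4.87% of all genes did. By the sign of the estimate 25 of 52 members were higher in Nmd-/-, against 56% of all genes. The log2 differences of members ran from -0.16 (Dync1i1) to 0.36 (Kif20a). Their median SE was 0.19 with genotype alone and 0.12 with replicate number as a block. The groups did not overlap for 3 members, Kif20a, Kifc5b and Kifc3, all above in Nmd-/- (1.76% of all genes), and for 0 members below (0.91%). Higher in Nmd-/- in 3 of 3 same-numbered pairs were 7 members, Kif20a, Kif22, Kif18b, Kifc5b, Kifc3, Kif13a and Dync1h1 (14.9% of all genes), and lower in 3 of 3 were the 4 Dynlt1 genes (10.6%).

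By replicate number, motor genes did pass. In a fit with genotype and replicate number as terms, the moderated F test of the number passed for 20 of 52 members, or 38.5% (limma adjusted p under 0.05), against 28.6% of all genes. Of the 4173 genes past the test in all, 2324 were lower in the libraries numbered 2 than in those numbered 1 and 1849 higher. Of the 52 members 11 passed and were lower (15.9% of all genes tested), among them Kif1a, Kif5a, Kif5c, Kif21b, Klc1 and Klc2. Another 9 of the 52 passed and were higher (12.7%), among them Kif6, Kif27, Dync2li1 and the 4 Dynlt1 genes. By role the counts were 6 of 14 axonal transport kinesins, 2 of 3 light chains of kinesin, 0 of 5 chains of dynein 1, 4 of 7 dynein light chains, 1 of 2 chains of dynein 2, 2 of 4 ciliary kinesins, 2 of 13 mitotic kinesins and 3 of 4 others. The neuron and fibroblast markers moved with these libraries (14 of 14 and 9 of 9 past the same test). Past it too were 0 of 18 dividing cell, 3 of 11 radial glia and astrocyte, 4 of 6 oligodendrocyte lineage and 1 of 1 motoneuron markers. The part of these cell types in the motor genes' differences was not tested. Leaving out either library numbered 1 lowered the counts past this test, for motor genes and for all genes alike. Both counts rose when Nmd+/+ replicate 3 or either of Nmd-/- replicates 2 and 3 was dropped. They changed little when Nmd+/+ replicate 2 was dropped. Each such fit kept only 1 library of the number concerned. With both libraries numbered 2 left out, 10 of 51 motor genes and 2850 of 14536 genes passed. With no filter on low values 0 motor genes and 0 genes in all passed. What the number stands for is not given in the labels. Without a test, both libraries numbered 2 lay below the other 4 for 14 of 52 members (18.8% of all genes) and above them for 15 (20.6%). Both libraries numbered 1 lay above the rest for 10 (25.9%) and below for 12 (17.7%). The pair numbered 3 lay above the rest for 1 member, Dynll2 (4.18%), and below for 1, Kif1c (10.8%).

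**Figure D1:**
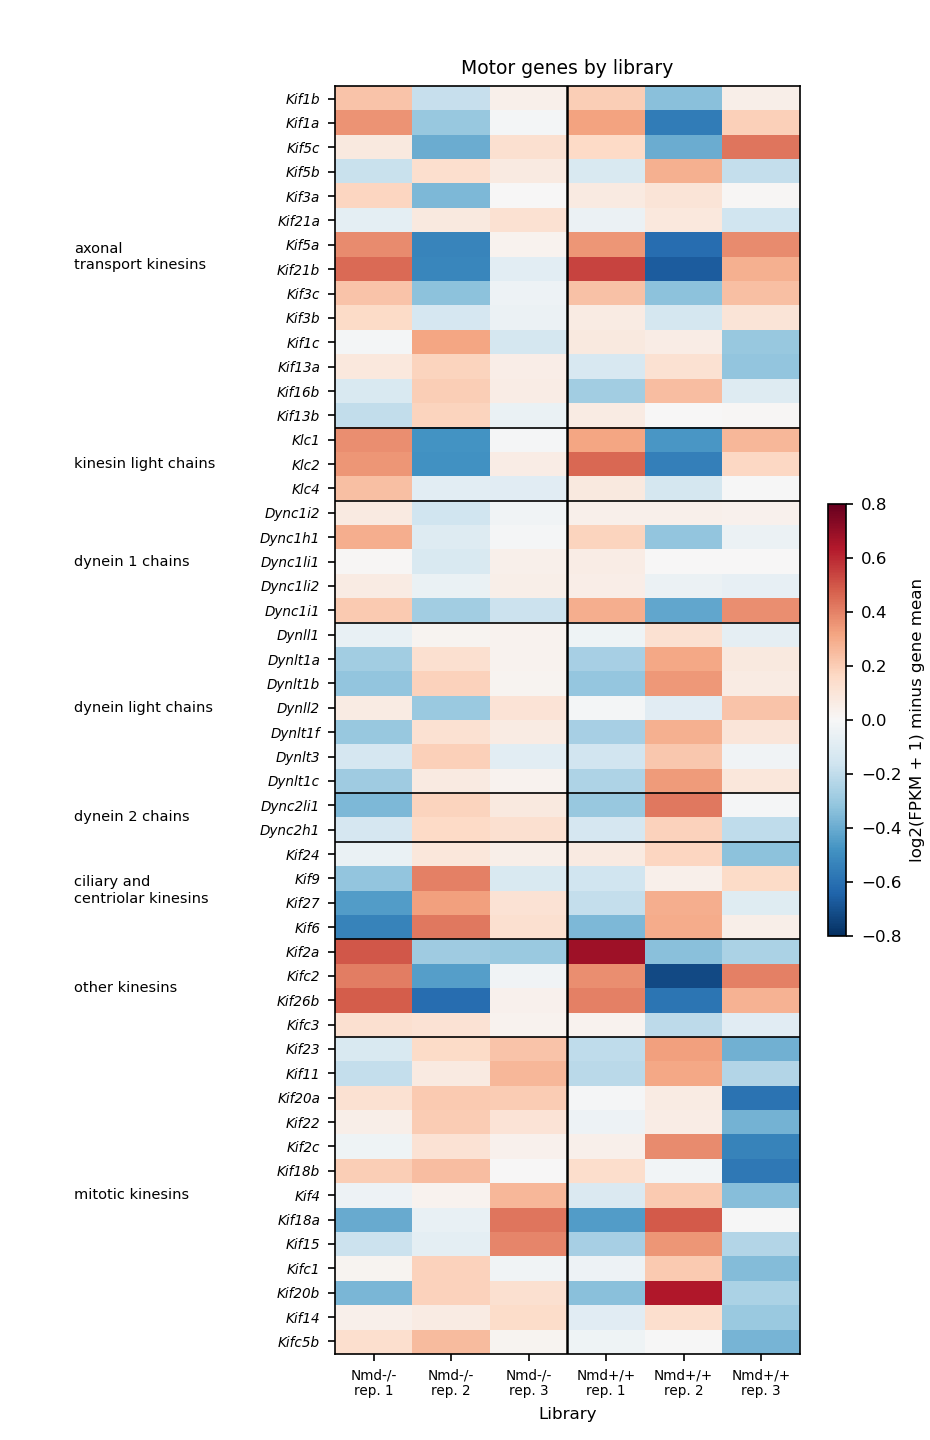
Each row is 1 of the 52 tested motor genes, grouped by role, and each column a library, with Nmd-/- left of the line and Nmd+/+ right of it. Colour gives log2(FPKM + 1) minus the gene's mean over the 6 libraries: replicate 2 of both genotypes is blue for Kif1a, Kif5a, Kif21b, Klc1 and Kif26b and red for Kif6 and Kif27, and Nmd+/+ replicate 3 is blue for most mitotic kinesins.

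**Figure D2:**
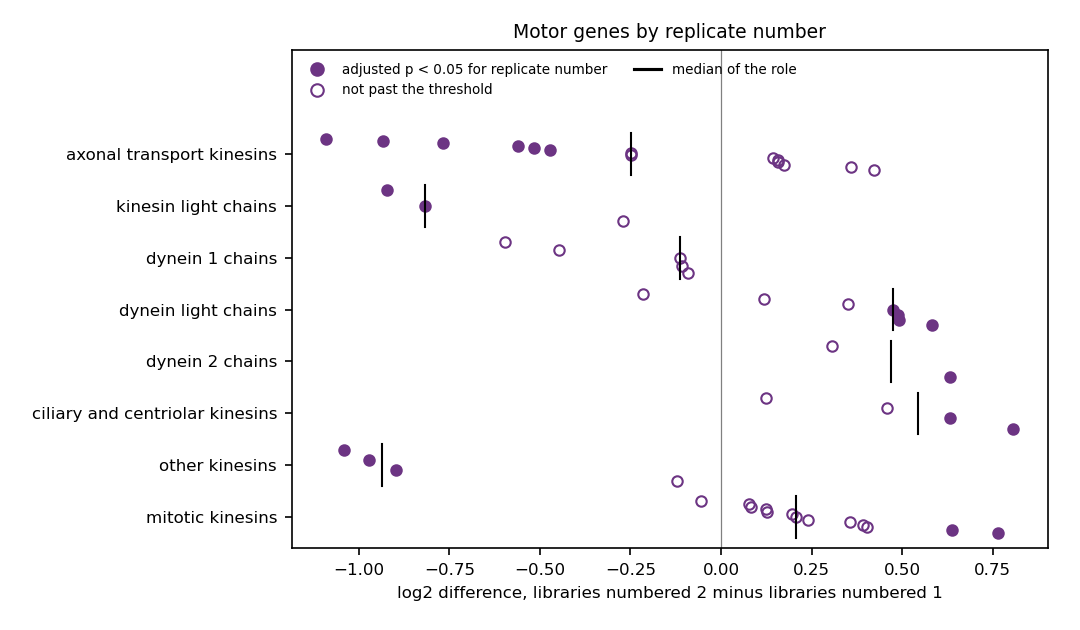
Each point is a motor gene, placed by its log2 difference between the libraries numbered 2 and those numbered 1 (both genotypes, 2 libraries each). Filled points passed the F test of the replicate number, and bars mark the median of each role: -0.25 for axonal transport kinesins, -0.82 for kinesin light chains, 0.47 for dynein light chains and 0.21 for mitotic kinesins.

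Among the axonal transport kinesins, Kif1b, Kif1a and Kif5c had the highest FPKM. Kif1b, which carries mitochondria and synaptic vesicle precursors, measured 98.03, 73.4 and 86.03 FPKM in Nmd-/- replicates 1, 2 and 3, against 95.7, 65.9 and 86.4 FPKM in Nmd+/+ replicates 1, 2 and 3. The same order held for Kif1a (ENSMUSG00000014602, chromosome 1, 93015456 to 93101865, GRCm38), the motor of synaptic vesicle precursors, at 83.7, 52.7 and 64.5 FPKM in Nmd-/- against 81.6, 43.9 and 74.5 FPKM in Nmd+/+. In both genes replicate 1 was highest and replicate 2 lowest in each genotype, and the genotypes overlapped. The log2 difference between genotypes was 0.03 (SE 0.27 and 95% limits of -0.60 and 0.66) for Kif1a, while the number 2 minus number 1 difference was -0.77 (adjusted p = 0.00958). Kif1c, a related motor of vesicles and mRNA, was low at 8.204 to 11.6 FPKM in Nmd-/- and 7.23 to 9.697 FPKM in Nmd+/+, and took 6.12 ± 2.02% of the summed Kif1 FPKM in Nmd-/- and 5.84 ± 1.95% in Nmd+/+ (SD, n = 3 each).

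Kinesin-1, the motor of fast anterograde transport, is built from heavy chains made by Kif5a, Kif5b or Kif5c. Kif5a and Kif5c are enriched in neurons and Kif5b is made in most cells. Kif5c (ENSMUSG00000026764, chromosome 2, 49619298 to 49774778) measured 62.8, 44.9 and 64.9 FPKM in Nmd-/- against 66.6, 44.8 and 80.3 FPKM in Nmd+/+. Kif5a (ENSMUSG00000074657, chromosome 10, 127225696 to 127263363), mutated in human hereditary spastic paraplegia and amyotrophic lateral sclerosis, measured 28.3, 14.6 and 22.04 FPKM in Nmd-/- against 27.8, 13.8 and 28.3 FPKM in Nmd+/+. Both were lowest in replicate 2 of each genotype. Kif5b (ENSMUSG00000006740) went the other way, at 31.1, 38.9 and 37.2 FPKM in Nmd-/- against 32.4, 43.2 and 30.8 FPKM in Nmd+/+, highest in replicate 2 of each. The replicate number passed for Kif5a (adjusted p = 0.00372) and Kif5c (adjusted p = 0.0108) and not for Kif5b (adjusted p = 0.141). Kif5b thus made up 25.5, 39.5 and 29.95% of the summed Kif5 FPKM in Nmd-/- replicates 1, 2 and 3, against 25.5, 42.4 and 22.1% in Nmd+/+. Between genotypes the means of these shares lay close, at 31.6 ± 7.19% in Nmd-/- and 30.01 ± 10.9% in Nmd+/+ (SD, n = 3 each).

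Light chains tie kinesin-1 to its cargo. Klc1 (ENSMUSG00000021288, chromosome 12, 111758849 to 111807844) supplied 83.2 ± 0.206% of the summed light chain FPKM in Nmd-/- and 83.6 ± 1.27% in Nmd+/+ (SD, n = 3 each). Its own level was 92.3, 50.9 and 70.9 FPKM in Nmd-/- against 89.03, 51.2 and 85.8 FPKM in Nmd+/+, so the share stayed narrow while the level moved with replicate number (adjusted p = 0.00534). Klc2 followed the same order, with 16.1, 8.55 and 12.9 FPKM in Nmd-/- against 17.4, 8.13 and 13.97 FPKM in Nmd+/+ (adjusted p = 0.00308). Klc4 lay between 1.47 and 2.22 FPKM over all libraries, and Klc3 was below 1 FPKM in each (0.0454 to 0.156 FPKM), where the Cufflinks interval reached 0 in 2 libraries.

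**Figure D3:**
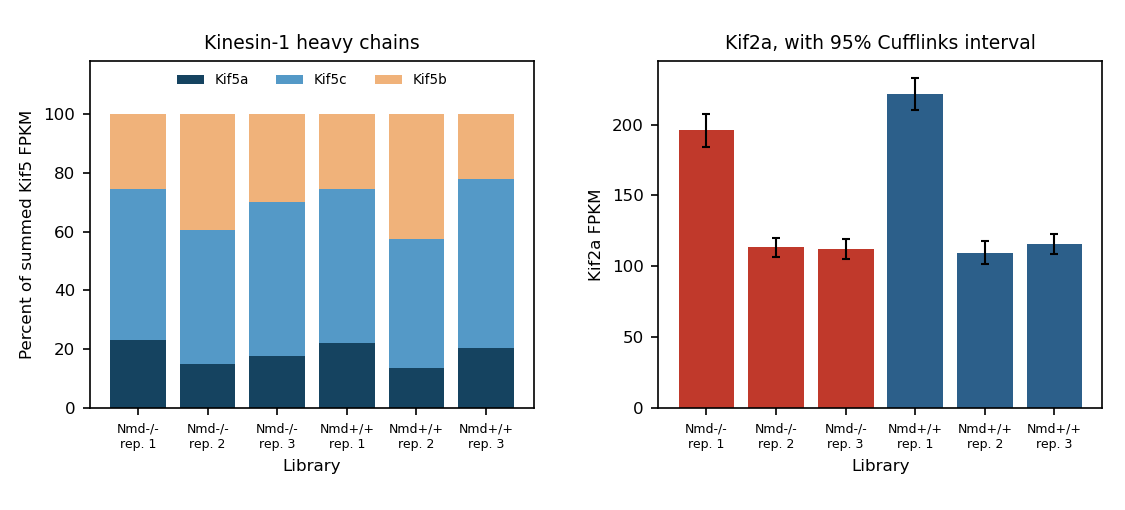
Left, the percent of summed Kif5 FPKM given by Kif5a, Kif5c and Kif5b in each library, Nmd-/- first: the Kif5b share is highest in replicate 2 of both genotypes, at 39.5% and 42.4%. Right, the FPKM of Kif2a per library with the authors' 95% Cufflinks interval: both libraries numbered 1 stand at 196 and 222 FPKM and the other 4 between 109.7 and 116 FPKM.

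The remaining transport kinesins differed among themselves by replicate number. Kif3a, which pairs with Kif3b or Kif3c to form kinesin-2, measured 38.5, 26.4 and 34.2 FPKM in Nmd-/- against 35.97, 36.7 and 34.4 FPKM in Nmd+/+, with Nmd-/- replicate 2 alone low. Kif3c, the neuronal partner, measured 18.2, 12.002 and 14.9 FPKM in Nmd-/- against 18.2, 11.99 and 18.3 FPKM in Nmd+/+ and passed for replicate number (adjusted p = 0.0255). Kif3b lay between 11.1 and 13.9 FPKM. Kif21b, a neuronal motor that also limits microtubule growth, showed the widest span of the transport kinesins in the test, with 27.8, 13.6 and 18.9 FPKM in Nmd-/- against 29.6, 12.2 and 24.6 FPKM in Nmd+/+ (number 2 minus number 1 on the log2 scale -1.09, adjusted p = 0.00277). Its relative Kif21a was level, at 21.9 to 25.3 FPKM in Nmd-/- and 20.7 to 24.7 FPKM in Nmd+/+. Kif13a, which carries mannose-6-phosphate receptor vesicles, had the smallest genotype p of the role, at 7.33, 7.89 and 7.16 FPKM in Nmd-/- against 6.202, 7.57 and 5.32 FPKM in Nmd+/+. Its difference came to 0.21 (SE 0.15 and 95% limits of -0.14 and 0.56) on the log2 scale (limma adjusted p = 0.9997), with 0.11 without Nmd+/+ replicate 3 and 0.33 without Nmd+/+ replicate 2. The early endosome motor Kif16b lay between 1.47 and 2.56 FPKM and Kif13b between 0.753 and 1.27 FPKM. Kif17, a dendritic and ciliary motor, stayed below 1 FPKM throughout (0.537 to 0.995 FPKM) and was not tested. Over the 14 tested members 7 were higher and 7 lower in Nmd-/- (56% of all genes were higher). Their median log2 difference was 0.0004 beside 0.02 for all genes tested. With median-of-ratios scaling 6 of 14 were higher, against 48.7% of all genes.

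Of cytoplasmic dynein 1, the retrograde motor, none of the 5 heavy, intermediate and light intermediate chain genes passed either test. Its heavy chain gene Dync1h1 (ENSMUSG00000018707, chromosome 12, 110601452 to 110666945), which harbours dominant mutations in human spinal muscular atrophy of the legs, measured 69.99, 52.9 and 56.7 FPKM in Nmd-/- replicates 1, 2 and 3, against 64.6, 45.5 and 55.1 FPKM in Nmd+/+ replicates 1, 2 and 3. Replicate 1 was highest in each genotype and the genotypes overlapped, with a log2 difference of 0.12 (SE 0.18 and 95% limits of -0.29 and 0.54). The intermediate chain came almost wholly from Dync1i2, which gave 95.6 ± 0.609% of the pair's FPKM in Nmd-/- and 95.1 ± 1.501% in Nmd+/+ (SD, n = 3 each) and measured 115, 97.8 and 107 FPKM in Nmd-/- against 112, 112 and 112 FPKM in Nmd+/+. Dync1i1, the neuronal form, measured 6.15, 4.11 and 4.49 FPKM in Nmd-/- against 6.57, 3.63 and 7.01 FPKM in Nmd+/+ and was lowest in replicate 2 of each genotype. The light intermediate chains, which bind cargo adaptors, had a narrow range: Dync1li1 lay between 27.997 and 31.8 FPKM and Dync1li2 between 13.3 and 14.6 FPKM. The replicate number passed for 0 of these 5 genes by the adjusted p, against 28.6% of all genes. Dync1h1 (adjusted p = 0.0526 in the F test) and Dync1i1 (0.0513) lay just above the threshold.

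Dynll1 (ENSMUSG00000009013, chromosome 5, 115297110 to 115300999) was the most abundant motor gene. It encodes the LC8 light chain, a small hub protein with many partners besides dynein, and measured 539.5, 571 and 573 FPKM in Nmd-/- replicates 1, 2 and 3, against 549.8, 612 and 534 FPKM in Nmd+/+ replicates 1, 2 and 3. The difference was -0.01 (SE 0.13 and 95% limits of -0.32 and 0.30) on the log2 scale. Dynll2, its close relative, measured 61.5, 47.8 and 63.4 FPKM in Nmd-/- against 58.2, 55.3 and 69.005 FPKM in Nmd+/+, above the other 4 libraries in both numbered 3 and below them in both numbered 2. The Tctex light chain genes Dynlt1a, Dynlt1b, Dynlt1c and Dynlt1f are near-identical copies on chromosome 17. Of the 31-base words in their GENCODE M21 transcripts, 70.1% (Dynlt1a), 86.9% (Dynlt1b), 85.8% (Dynlt1c) and 92.7% (Dynlt1f) occurred in another motor gene, so how reads were divided among them is uncertain and their 4 entries in the counts above are not independent. Dynlt1a measured 52.9, 70.4 and 65.7 FPKM in Nmd-/- against 53.5, 79.9 and 68.1 FPKM in Nmd+/+. All 4 were lowest in replicate 1 of each genotype and passed for replicate number, with differences between number 2 and number 1 of 0.47 (Dynlt1c) to 0.58 (Dynlt1b) on the log2 scale. Dynlt3, an X-linked relative, lay between 46.2 and 60.04 FPKM. The 7 light chain genes were lower in Nmd-/- by estimate, with differences of -0.12 (Dynlt1c) to -0.01 (Dynll1) on the log2 scale, and 0 of 7 had an unadjusted p under 0.05 in limma. The count by estimate was 0 of 7 higher under both scalings tried as well. Of all genes tested 56% were higher unscaled, 48.7% with median-of-ratios scaling and 49.4% with quantile normalization.

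Of the dynein 2 chains and the kinesins listed here as ciliary and centriolar, those past the replicate number test were higher in number 2 than in number 1. Dync2li1, a light intermediate chain of the dynein that returns cargo from the tip of the cilium, measured 18.8, 27.8 and 25.9 FPKM in Nmd-/- against 19.6, 33.1 and 24.2 FPKM in Nmd+/+ (number 2 minus number 1 on the log2 scale 0.63, adjusted p = 0.0184). The heavy chain gene Dync2h1 lay between 3.31 and 4.64 FPKM and was also highest in replicate 2 of each genotype. Kif6 measured 1.05, 2.97 and 2.23 FPKM in Nmd-/- against 1.31, 2.64 and 2.07 FPKM in Nmd+/+ and passed for replicate number (adjusted p = 0.00991), as did Kif27 at 2.19, 4.47 and 3.72 FPKM in Nmd-/- against 2.81, 4.34 and 3.08 FPKM in Nmd+/+ (adjusted p = 0.0324). Kif9, known from motile cilia and sperm flagella, lay between 3.102 and 5.76 FPKM and Kif24, a centriolar microtubule depolymerase, between 3.35 and 5.16 FPKM. Kif7, the kinesin of the Hedgehog pathway at the cilium tip, was below 1 FPKM in each library (0.423 to 0.641 FPKM), and so was Kif19a, which limits cilium length (0.266 to 0.462 FPKM). The 4 tested ciliary and centriolar kinesins split evenly by genotype (56% of all genes were higher in Nmd-/-), with log2 differences from -0.02 (Kif9) to 0.06 (Kif24). With median-of-ratios scaling 1 of 4 was higher, against 48.7% of all genes.

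Of the other kinesins, Kif2a stood out. It depolymerises microtubule ends and trims axon branches, and was the most abundant kinesin. Kif2a (ENSMUSG00000021693, chromosome 13, 106958996 to 107022126) measured 196, 113 and 112 FPKM in Nmd-/- replicates 1, 2 and 3, against 222, 109.7 and 116 FPKM in Nmd+/+ replicates 1, 2 and 3. Both libraries numbered 1 stood apart, and the authors' 95% Cufflinks intervals of these libraries (184 to 207 FPKM in Nmd-/- and 210.4 to 233 FPKM in Nmd+/+) lay above those of the other 4, which ended at 122.9 FPKM. The libraries numbered 2 and 3 differed little, by 0.03 on the log2 scale. It had the smallest replicate number p of all members (adjusted p = 0.0021). Of 14611 genes 46, or 0.315%, had both libraries numbered 1 above the other 4 by at least its 1.69-fold gap. Genes with number 1 as far below the rest were not counted. Between genotypes its log2 difference was -0.06 (SE 0.33 and 95% limits of -0.83 and 0.71).

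Kifc2, a minus-end motor of neurons, measured 11.8, 6.08 and 8.43 FPKM in Nmd-/- against 11.5, 4.84 and 11.7 FPKM in Nmd+/+, and Kif26b, an atypical kinesin without known motility, measured 7.46, 2.97 and 5.21 FPKM in Nmd-/- against 6.999, 3.03 and 6.33 FPKM in Nmd+/+. Both were lowest in replicate 2 of each genotype, with adjusted p of 0.00689 and 0.00268 for replicate number. Kifc3, another minus-end motor, was above in Nmd-/- without overlap, at 3.26, 3.22 and 2.98 FPKM in Nmd-/- against 2.97, 2.38 and 2.66 FPKM in Nmd+/+, by 0.18 (SE 0.13 and 95% limits of -0.12 and 0.48) on the log2 scale (limma adjusted p = 0.9997). Its nearest values almost met, at 2.98 FPKM (Nmd-/- replicate 3) and 2.97 FPKM (Nmd+/+ replicate 1). Kif26a lay between 0.503 and 0.825 FPKM. Kif12 stayed below 0.1 FPKM in every library, as did Kif2b, a spindle kinesin listed at 0 in all 6.

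Most mitotic kinesins were higher in Nmd-/- by estimate, and none passed the test. Of 13 tested members 11 were higher in Nmd-/- by estimate (56% of all genes were), with a median log2 difference of 0.17 against 0.02 for all genes, and 0 of 13 had an unadjusted p under 0.05 in limma. The difference was largest in pair 3: the median differences within pairs were 0.07, -0.18 and 0.50 for the numbers 1, 2 and 3. In Nmd+/+ replicate 3, 10 of the 13 members had their lowest value of all libraries. The median was 0.02 without that library, and 0.30 without Nmd+/+ replicate 2. The dividing cell markers were lowest in Nmd+/+ replicate 3 as well, and all 18 of them were higher in Nmd-/- by estimate, with 0 of 18 past the adjusted threshold in limma and 1 of 18 at an unadjusted p under 0.05. As a percent of the summed dividing cell markers, the summed mitotic kinesins held a narrow range: 12.7, 13.5 and 13.3% in Nmd-/- replicates 1, 2 and 3, against 12.7, 13.7 and 13.2% in Nmd+/+. The summed axonal transport kinesins spanned 20.7, 30.05 and 23.6% of the summed neuron markers in Nmd-/-, against 19.3, 29.4 and 19.6% in Nmd+/+. The part of dividing cell number in these levels was not tested.

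**Figure D4:**
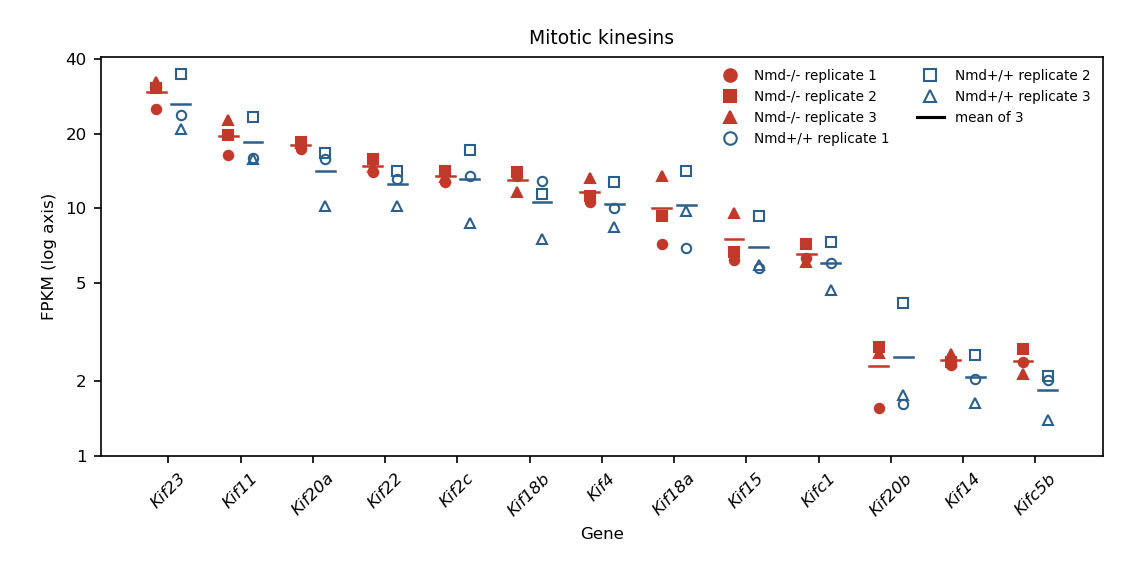
FPKM of the 13 tested mitotic kinesins on a log axis, with Nmd-/- filled and left of Nmd+/+ (open) for each gene, marker shape giving the replicate number and bars the mean of 3 libraries. Nmd+/+ replicate 3 is the lowest point for 10 of the 13 genes, and only Kif20a and Kifc5b have all Nmd-/- points above all Nmd+/+ points.

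Most of the mitotic kinesin promoters searched, 11 of 13, hold an element that most other members lack. The cell cycle genes homology region, or CHR (TTTGAA), is bound by the MuvB complexes that shut these genes off in resting cells and switch them on before mitosis, and often lies near a CCAAT box, the site of the factor NF-Y. The RefSeq promoter table (GRCm38.p6) held 300 bases around the start of 45 of the 59 members, among them 13 of the 14 mitotic kinesins, all but Kif20a. Both motifs were searched on both strands, and in no member did a match of one overlap a match of the other. TTTGAA was found in the promoters of 11 of 13 mitotic kinesins (84.6%), against 3 of 37 promoters of the other members (8.11%) and 17.9% of all 32851 promoters of that length. CCAAT was found in 9 of 13 (69.2%), 14 of 37 (37.8%) and 37.4%, and both together in 8 of 13 (61.5%), 2 of 37 (5.41%) and 6.95%. Between 60 bases before the start and base 25 of the transcript, TTTGAA began in 8 of 13 (61.5%), 2 of 37 (5.41%) and 4.62%. The promoters of Kifc1 and Kifc5b share long runs of the same bases, so their matches are not independent. These are matches of letters and do not show binding. The following sequences run from 70 bases before the start to base 30 of the transcript, 5′ to 3′ on the gene's strand, for 7 members with a CHR in that window. Capitals mark matches to either motif. A CHR on the opposite strand reads TTCAAA here, and an opposite CCAAT box reads ATTGG.
Kif11: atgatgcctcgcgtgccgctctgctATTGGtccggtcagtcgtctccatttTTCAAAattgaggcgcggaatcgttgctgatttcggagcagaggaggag
Kif22: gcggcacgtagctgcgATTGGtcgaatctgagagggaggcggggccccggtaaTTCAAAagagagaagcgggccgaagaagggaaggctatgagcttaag
Kif18b: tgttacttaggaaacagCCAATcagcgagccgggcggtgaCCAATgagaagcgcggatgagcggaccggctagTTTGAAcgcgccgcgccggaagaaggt
Kif20b: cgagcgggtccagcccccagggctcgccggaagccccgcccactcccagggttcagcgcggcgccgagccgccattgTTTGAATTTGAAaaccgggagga
Kif23: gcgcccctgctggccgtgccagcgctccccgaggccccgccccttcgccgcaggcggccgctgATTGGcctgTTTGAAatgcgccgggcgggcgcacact
Kif4: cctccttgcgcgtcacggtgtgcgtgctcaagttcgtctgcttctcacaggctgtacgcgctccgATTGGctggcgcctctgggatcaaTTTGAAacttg
Kif15: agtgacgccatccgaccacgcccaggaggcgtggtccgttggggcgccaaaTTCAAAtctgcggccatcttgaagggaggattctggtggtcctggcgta

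The windows are chr19:37376312-37376411 for Kif11 (plus strand), chr7:127042391-127042490 for Kif22 (minus), chr11:102925095-102925194 for Kif18b (minus), chr19:34922288-34922387 for Kif20b (plus), chr9:61946770-61946869 for Kif23 (minus), chrX:100625995-100626094 for Kif4 (plus) and chr9:122951011-122951110 for Kif15 (plus). In Kif11 the CCAAT match began 45 bases and the CHR 19 bases before the start, and in Kif22 they began 54 and 17 bases before it. Kif20b had a pair of CHR matches side by side, from bases 8 and 14 of the transcript. Kif15 had a CHR 19 bases before the start and no CCAAT in the table's window. Kif18a and Kif2b were the mitotic members without a TTTGAA in their window. Of the other members, Kif1a, Kif26b and Kif27 had a match.

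Kif20a and Kifc5b were the mitotic members whose genotypes did not overlap. Kif20a (ENSMUSG00000003779), a motor that brings Aurora B to the midzone during cytokinesis, had the smallest genotype p of all members and measured 17.4, 18.5 and 18.5 FPKM in Nmd-/- replicates 1, 2 and 3, against 15.8, 16.7 and 10.2 FPKM in Nmd+/+ replicates 1, 2 and 3. The means were 18.1 ± 0.654 FPKM in Nmd-/- and 14.2 ± 3.51 FPKM in Nmd+/+ (SD, n = 3 each), and the difference on the log2 scale was 0.36 (SE 0.19 and 95% limits of -0.09 and 0.80), with a limma adjusted p of 0.9997 (0.990 with the replicate block). Within pairs 1, 2 and 3 the difference was 0.13, 0.14 and 0.80, largest in pair 3, and without Nmd+/+ replicate 3 the estimate was 0.15. Kifc5b measured 2.41, 2.71 and 2.14 FPKM in Nmd-/- against 2.03, 2.102 and 1.396 FPKM in Nmd+/+, but 49.9% of its 31-base words occur in Kifc1, so how reads were divided between them is uncertain. Its estimate was 0.27 with all libraries and 0.15 without Nmd+/+ replicate 3. Kifc1 itself, a minus-end motor that focuses spindle poles, overlapped at 6.303, 7.204 and 6.05 FPKM in Nmd-/- against 6.01, 7.33 and 4.67 FPKM in Nmd+/+.

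The next mitotic members by genotype p were Kif22, Kif18b, Kif14 and Kif4, whose groups overlapped. Kif22, a chromokinesin that pushes chromosome arms outward, measured 14.05, 15.8 and 14.7 FPKM in Nmd-/- against 13.2, 14.1 and 10.2 FPKM in Nmd+/+, a log2 difference of 0.24 (SE 0.15 and 95% limits of -0.11 and 0.59). Kif18b, which shortens astral microtubules, measured 13.5, 14.01 and 11.7 FPKM in Nmd-/- against 12.96, 11.5 and 7.52 FPKM in Nmd+/+, a log2 difference of 0.30 (SE 0.20 and 95% limits of -0.17 and 0.77). Kif14, a cytokinesis motor, lay between 1.64 and 2.59 FPKM with a log2 difference of 0.17 (SE 0.15 and 95% limits of -0.18 and 0.52). Kif4, an X-linked chromokinesin of the anaphase midzone, lay between 8.42 and 13.3 FPKM with a log2 difference of 0.17 (SE 0.17 and 95% limits of -0.24 and 0.58). Each of these had adjusted p = 0.9997 in limma, and Nmd+/+ replicate 3 was its lowest library. Without that library the log2 differences were 0.11 (Kif22), 0.09 (Kif18b), 0.06 (Kif14) and 0.04 (Kif4). For Kif4 the difference was also lower, at 0.08, without Nmd-/- replicate 3, and without Nmd+/+ replicate 2 it was 0.31 for Kif4 and 0.28 for Kif14.

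The most abundant mitotic kinesins overlapped between genotypes. Kif23, the motor subunit of centralspindlin, measured 25.2, 30.7 and 32.4 FPKM in Nmd-/- against 23.8, 34.8 and 20.9 FPKM in Nmd+/+. Kif11, which slides spindle poles apart and in fibroblasts has been linked to transport of β-actin mRNA through its zipcode binding protein, measured 16.4, 19.8 and 22.8 FPKM in Nmd-/- against 16.1, 23.5 and 15.9 FPKM in Nmd+/+. In both genes pair 2 was lower in Nmd-/- and pair 3 higher. Kif2c, a microtubule depolymerase at centromeres, lay between 8.698 and 17.2 FPKM. Kif18a, which aligns chromosomes, measured 7.17, 9.34 and 13.5 FPKM in Nmd-/- against 6.92, 14.2 and 9.76 FPKM in Nmd+/+, and Kif20b, a cytokinesis motor, 1.56, 2.75 and 2.602 FPKM in Nmd-/- against 1.62, 4.15 and 1.77 FPKM in Nmd+/+. These last were the mitotic members that passed for replicate number, with adjusted p of 0.0496 and 0.0348, and both were lowest in replicate 1 of each genotype. Kif15, a spindle kinesin that acts beside Kif11, lay between 5.74 and 9.63 FPKM.

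No listed partner of the motors passed between genotypes. Of 12 dynactin subunits 0 passed the adjusted threshold in limma, with 7 higher by estimate and a median log2 difference of 0.005. Of all genes tested 56% were higher in Nmd-/- by estimate, or 48.7% with median-of-ratios scaling, and their unscaled median was 0.02. Capzb, the capping protein of the dynactin filament, measured 309.9, 295 and 230.5 FPKM in Nmd-/- against 323, 240.4 and 214 FPKM in Nmd+/+. Of 13 tested regulators and adaptors of dynein 0 passed and 8 were higher. Nde1, which works with Lis1 on dynein and is also needed by dividing progenitors, measured 50.9, 52.8 and 54.7 FPKM in Nmd-/- against 48.98, 47.4 and 34.2 FPKM in Nmd+/+. It was above in Nmd-/- without overlap, as were 1.76% of all genes, and Nmd+/+ replicate 3 was its lowest library. Its log2 difference was 0.29 (limma adjusted p = 0.9997). Of 15 partners of kinesins 0 passed and 3 were higher, with a median of -0.09. Arl8a, a lysosomal GTPase that recruits kinesins, measured 287, 279 and 259 FPKM in Nmd-/- against 290.4, 298 and 288 FPKM in Nmd+/+. It was below in Nmd-/- without overlap, as were 0.91% of all genes, though its nearest values almost met. Madd, an adaptor of Kif1 motors, measured 18.8, 11.7 and 15.3 FPKM in Nmd-/- against 19.97, 13.5 and 20.03 FPKM in Nmd+/+. Of 14 proteins of axonal microtubules 0 passed and 2 were higher, with a median of -0.08; Map2 measured 483, 309.7 and 409 FPKM in Nmd-/- against 554, 253 and 504 FPKM in Nmd+/+ and Map7d2, a kinesin-1 activator, 10.5, 8.78 and 11.5 FPKM in Nmd-/- against 11.7, 11.5 and 15.3 FPKM in Nmd+/+. At an unadjusted p under 0.05 in limma the count was 0 in each of these 4 lists. The neuron markers were lower in Nmd-/- by estimate too, 14 of 14 with a median of -0.18 and 0 past the adjusted threshold, and their part in these values was not tested. Replicate number passed for 6 of 12, 1 of 13, 8 of 15 and 9 of 14 of them, against 28.6% of all genes.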

How the data were processed

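RNA was extracted from primary mouse motoneuron cultures with a column kit and made into libraries with a Lexogen mRNA kit, per the labels' protocols. The authors deposited 1 table per library, holding each gene's FPKM, its lower and upper 95% bound and a quantification status, in the Cufflinks layout per the file headers. Cufflinks 2.2.1, SAMtools 1.3, cutadapt 1.8, Trim Galore 0.4.0, FastQC 0.10.1 and the build GRCm38 are named, without roles or order, per the submitters' processing notes. Aligner, annotation release and strand setting were not given in the sources used here. Overlapping genes may therefore share reads. No scaling between libraries is stated, and FPKM tables carry no counts. Taking the interval's half-width as 2 SDs, the fragments that counting error alone would need came to between 15381970 and 23072408 per library, and for the 52 tested members to at least 58.4 (Kif6). Such bounds hold no spread between libraries.

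Genes with a mean of at least 1 FPKM and an accepted status in each library were tested, 14611 in all. Log2(FPKM + 1) was fitted in limma 3.58.1 (R 4.3.3) with an intensity trend, first with genotype alone (Nmd-/- minus Nmd+/+) and then with genotype and replicate number. P-values are two-sided, adjusted by Benjamini-Hochberg over all genes tested, with a threshold of 0.05. The pseudocount of 1 understates differences of low genes. Libraries were paired by the numbers in their labels and not by their values. As a check, deviations of same-numbered libraries from their genotype means correlated at 0.82, 0.70 and 0.39 across genes for the numbers 1, 2 and 3. The procedure was tested on simulated data with independent noise, at the spread of the fit with replicate number. The simulations of genotype held no differences between replicate numbers, so they cannot show how the genotype fit behaves with such differences. Members, roles, lists and the rule for named genes (the highest members of each role, those with the smallest p for genotype or replicate number, and the 8 smallest genotype p over all members) were chosen with earlier results of these data known. Promoter sequences are from RefSeq, and coordinates of genes are from the deposited tables, counted from 1. Alternatives were another pseudocount, other filters on low values, 2 scalings, no trend, the block and leaving out each library.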

Additional observations from a re-analysis of the deposited data

How the results depend on the processing

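The count of motor genes past the adjusted threshold between genotypes was 0 under each of the 8 planned settings and without each library in turn, with the replicate block included. The block moved no other call between genotypes. With the block and both libraries numbered 2 left out, chosen after seeing the data, 20 of 14536 genes passed, none of them a motor gene. In that setting replicate number passed for 10 of 51 motor genes and for 2850 of 14536 genes. The estimates for Kif20a, Kifc5b, Kif22, Kif18b, Kif14, Kif4, Kif13a and Kifc3 stayed positive under every setting that gave one, with ranges of 0.15 to 0.48 (Kif20a), 0.15 to 0.39 (Kifc5b), 0.11 to 0.33 (Kif22), 0.09 to 0.44 (Kif18b), 0.06 to 0.29 (Kif14), 0.04 to 0.34 (Kif4), 0.11 to 0.33 (Kif13a) and 0.11 to 0.24 (Kifc3). For the first 7 of these the lowest value was the one without Nmd+/+ replicate 3. The median of the mitotic kinesins lay between 0.02 and 0.30. Leaving out 1 library at a time, the median of the axonal transport kinesins ran from -0.093 to 0.074, and replicate number passed for 2281 to 6466 genes and 10 to 29 motor genes. With no filter on low values replicate number passed for 0 genes and 0 motor genes: 27711 genes then entered, and the estimated prior degrees of freedom were 1.77 against 8.12. Dividing each library by its median-of-ratios factor left 48.7% of all genes higher in Nmd-/-, against 56% unscaled, and 11 of 13 mitotic kinesins higher either way. With 3 libraries per genotype the median SE of a motor gene was 0.19 on the log2 scale.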

Other observations

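The 2 genes for light intermediate chains of dynein 1 kept a nearly fixed ratio. Dync1li2 gave 32.2, 32.4 and 31.5% of their summed FPKM in Nmd-/- replicates 1, 2 and 3, against 31.3, 30.5 and 30.3% in Nmd+/+. The shares did not overlap between genotypes, were not tested, and were picked out after their values were seen. Shares were computed for several sets of related motor genes, and those of all the other sets overlapped between genotypes. Dync1li1 and Dync1li2 each overlapped between genotypes in level.

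The roadblock light chain genes, which the naming left out, were expressed. Dynlrb1 measured 350.1, 291 and 350.0 FPKM in Nmd-/- replicates 1, 2 and 3, against 337, 306 and 378 FPKM in Nmd+/+ replicates 1, 2 and 3, second to Dynll1 among dynein light chains. Dynlrb2 measured 8.34, 17.2 and 13.4 FPKM in Nmd-/- against 10.6, 18.5 and 17.9 FPKM in Nmd+/+, and Kifap3, the cargo subunit of kinesin-2, 50.6, 36.2 and 46.3 FPKM in Nmd-/- against 50.8, 39.7 and 59.1 FPKM in Nmd+/+. Dynlrb2 was lowest in replicate 1 and Kifap3 in replicate 2 of each genotype.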
